A study of Mus musculus with 18 samples.

Results

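The genes described here are the Hox cluster genes of the mouse, taken from the rows of the deposited expression table whose symbol is Hoxa, Hoxb, Hoxc or Hoxd followed only by a number. Reported are 36 of the 18659 genes in the table, 9 each of the Hoxa, Hoxb, Hoxc and Hoxd clusters. Hoxa6 and Hoxb6 were not analysed here. RNA depleted of ribosomal RNA was sequenced from E14 mouse embryonic stem cells (mESCs), a male line kept in foetal calf serum and LIF on gelatin, 24 h after transfection with siRNAs to Stag1, a subunit of the cohesin complex. The siRNAs were SmartPool (SP), a mixture to the 3′ end of Stag1 (3p), a single duplex to its 5′ end (5p) and SATS. SATS was an enzymatically made mixture to the leader of transcripts that start at an upstream Stag1 promoter. Number endings that the paper lists for the 3p siRNAs also occur in its SP list, so SP and 3p may share siRNAs. The controls were scrambled siRNA (scr), siRNA to luciferase and untreated cells, all of the same line and medium. There were 16 libraries in 3 replicate sets. Set 1 held scr and SP 1a, 1b and 1c. Sets 2 and 3 held scr, SP, 3p, 5p and SATS once each, with an untreated library in set 2 and a luciferase library in set 3. The labels do not say that libraries of a group came from separate cultures, so p-values measure only the spread between these libraries.

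Hox genes encode homeodomain transcription factors that give cells their position along the head to tail axis. In each cluster the paralog number follows gene order on the chromosome, and genes of low number are used early and towards the head, genes of high number late and towards the tail. Retinoic acid switches on the low-numbered end, Cdx factors act on the middle, and in pluripotent cells the clusters are known as classical targets of Polycomb repression, with little transcription. The files place the work on mm10 (GRCm38), in which the Hoxa genes reported lie on chromosome 6 from 52162417 to 52260880 on the minus strand. Hoxb lies on chromosome 11 from 96194316 to 96368256, Hoxc on chromosome 15 from 102921103 to 103036852 and Hoxd on chromosome 2 from 74668310 to 74765142, all on the plus strand by GENCODE M21.

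Of the 10 Hox genes reported that differed between the replicate sets (values below), 5 had a start in the RefSeq promoter table (GRCm38.p6), and their upstream sequences are shown because these are the genes whose levels moved. Each run reads 5′ to 3′ on the plus strand, with CG dinucleotides in capitals. It ends at the base before the RefSeq start, or for Hoxd9 before the GENCODE start, which lies upstream of the RefSeq one. The first 2 belong to the Hoxb cluster and the other 3 to the Hoxd cluster.
Hoxb8, chr11:96281655-96281904: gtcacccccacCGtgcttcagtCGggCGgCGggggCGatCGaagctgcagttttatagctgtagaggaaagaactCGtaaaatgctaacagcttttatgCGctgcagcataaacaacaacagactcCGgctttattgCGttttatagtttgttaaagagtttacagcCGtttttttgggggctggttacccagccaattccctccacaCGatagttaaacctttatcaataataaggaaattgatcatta
Hoxb4, chr11:96318017-96318266: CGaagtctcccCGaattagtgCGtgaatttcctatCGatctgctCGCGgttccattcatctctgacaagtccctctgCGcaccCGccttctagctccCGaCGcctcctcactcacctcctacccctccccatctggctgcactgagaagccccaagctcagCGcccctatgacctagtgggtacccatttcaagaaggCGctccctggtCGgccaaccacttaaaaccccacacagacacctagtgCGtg
Hoxd13, chr2:74667975-74668224: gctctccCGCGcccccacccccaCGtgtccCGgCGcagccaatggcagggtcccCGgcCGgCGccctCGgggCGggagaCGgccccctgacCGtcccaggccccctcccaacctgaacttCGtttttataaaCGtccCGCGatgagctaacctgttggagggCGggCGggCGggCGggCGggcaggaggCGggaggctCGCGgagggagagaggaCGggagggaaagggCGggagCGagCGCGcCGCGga
Hoxd9, chr2:74697513-74697726: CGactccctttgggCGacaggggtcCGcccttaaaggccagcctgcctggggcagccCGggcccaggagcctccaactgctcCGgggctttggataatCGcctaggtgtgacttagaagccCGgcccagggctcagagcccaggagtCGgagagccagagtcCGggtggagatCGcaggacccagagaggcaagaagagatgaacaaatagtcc
Hoxd8, chr2:74704365-74704614: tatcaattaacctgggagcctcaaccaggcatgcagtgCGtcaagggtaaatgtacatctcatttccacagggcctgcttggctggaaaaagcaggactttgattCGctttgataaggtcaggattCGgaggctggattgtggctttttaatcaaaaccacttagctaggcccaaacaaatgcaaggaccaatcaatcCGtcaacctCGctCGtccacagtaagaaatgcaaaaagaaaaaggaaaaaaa

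The Hoxd13 run was the richest in CG, with 31 dinucleotides in 250 bases, and the Hoxd8 run the poorest, with 6. The Hoxb4 run held 14, the Hoxb8 run 12 and the Hoxd9 run, cut to 214 bases where another transcript model starts, 10. Promoter windows were found for 21 of the 36 Hox genes, 23 windows in all, with a median of 12 CG dinucleotides in the 250 upstream bases against 6 over all 32851 windows in the table. The letters TTTATG, a core bound by Cdx factors, were searched on both strands and occurred in 5 of the 23 Hox windows (Hoxa7, Hoxb8, Hoxd11, Hoxd3 and Hoxd4) and in 10.8% of all windows. TATAAA, also on both strands and able to overlap the former, occurred in 4 (Hoxa10, Hoxb8, Hoxd13 and Hoxd4) and in 12.4% of all windows. These are matches of letters only.

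The deposited values were read counts divided by a size factor for each library, called normalized values here, and the reads behind them could be recovered exactly. Each library of sets 2 and 3 held 32137666 to 45660840 reads on genes, of which 251 to 481 fell on these Hox genes, and 1 read was worth a normalized value of 0.353 to 0.479. In set 1 the totals were 9023224 to 14040830 reads, of which 69.2% to 79.1% lay on the ribosomal RNA gene Rn45s, and a library held 15 to 26 such reads. Stag1 itself was at 17.3% to 32.8% of scr in the SP, 3p and 5p libraries and at 50.5% and 49.7% with SATS. The 6 embryonic stem cell markers, Pou5f1, Sox2 and Nanog among them, were present in every library. The summed value of 7 fibroblast markers was 2641 to 5757 in set 2 and 366 to 573 in set 3, with no marker at 0 in either set. That difference between the sets stands beside the Hox results below.

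Hox transcripts were scarce. Over the 12 libraries of sets 2 and 3 the 36 genes together gave 4264 reads, 11.9 for every 1000000 reads outside Rn45s, and 3 genes of 3 clusters gave 50.3% of them. These were Hoxb9, Hoxc13 and Hoxd13, the Hox genes reported with a median of at least 20 reads in a library. Another 20 genes had medians from 3 to under 20 reads and 13 had medians under 3 reads. Of the 36 genes, 20 had a read in each of the 12 libraries.

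**Figure D1:**
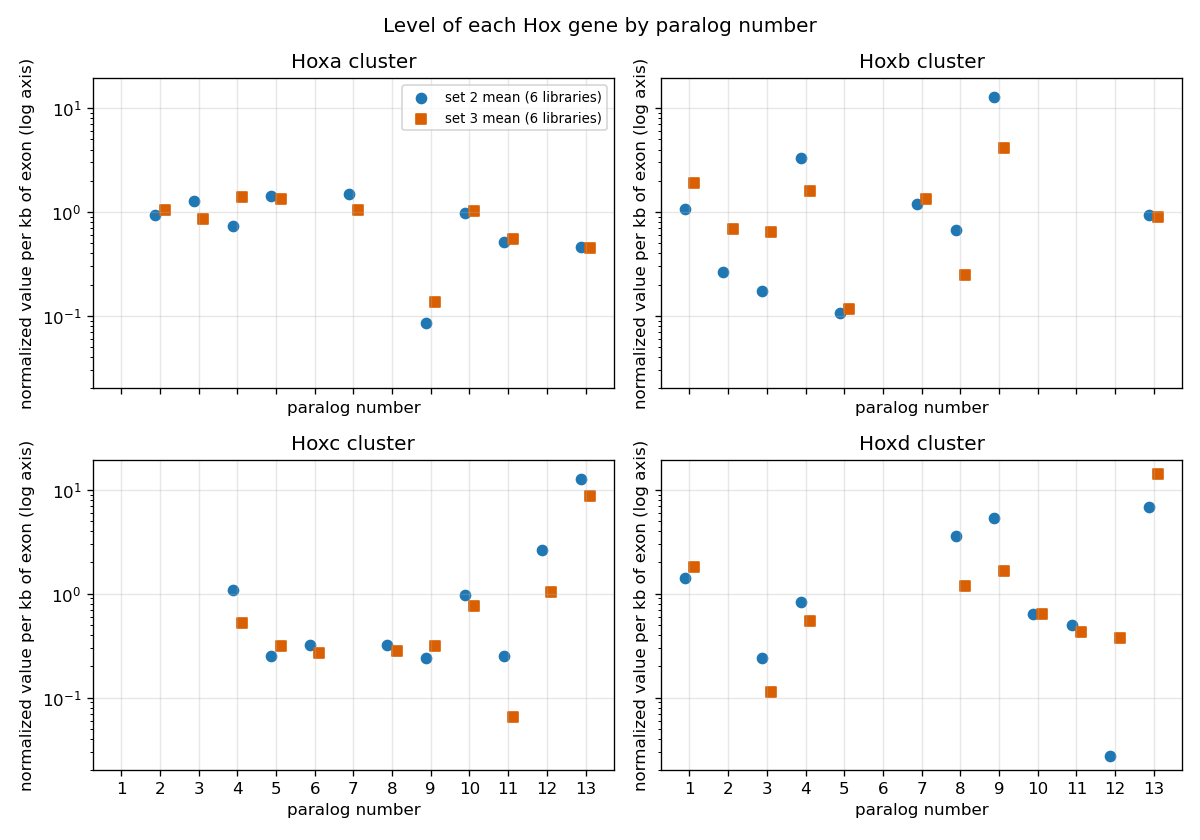
Mean normalized value per kilobase of exon (log axis) of each of the 36 Hox genes against its paralog number, with 1 panel for each cluster, circles for the mean of the 6 set 2 libraries and squares for the mean of the 6 set 3 libraries. Hoxb9, Hoxc13 and Hoxd13 stand highest in their clusters in both sets.

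Per kilobase of exon the order of the genes differed between the sets, so levels are given for each set as mean normalized value per kb ± SD over its 6 libraries, and neighbours are called apart where their means differed by more than the sum of their SDs. In set 2 Hoxc13, a gene of hair and nail, stood at 12.8 ± 1.29 and Hoxb9, a gene of the thoracic region, at 12.7 ± 2.16. These levels were not apart, and both were apart from Hoxd13, a gene of the digits, at 6.84 ± 1.87. Next in set 2 came Hoxd9 at 5.36 ± 2.00, Hoxd8 at 3.58 ± 1.59, Hoxb4 at 3.34 ± 0.90 and Hoxc12 at 2.63 ± 0.93, and from Hoxd13 to Hoxc12 no gene was apart from its neighbour in the order.

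In set 3 Hoxd13 led at 14.2 ± 1.42 per kb, followed by Hoxc13 at 8.71 ± 1.90 and Hoxb9 at 4.13 ± 1.49, and these 3 levels were apart from each other. Hoxb9 was in turn apart from Hoxb1, a gene of the hindbrain, at 1.91 ± 0.48. Then came Hoxd1 at 1.80 ± 0.88, Hoxd9 at 1.66 ± 0.66 and Hoxb4 at 1.59 ± 0.42, which were not apart from their neighbours. In both sets the last gene led in Hoxc and Hoxd, and in Hoxb the next to last, Hoxb9, which lies before Hoxb13.

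The leading gene took a different share of each cluster's reads. Hoxc13 gave 74.6% of the 1021 Hoxc reads. Hoxb9 gave 53.3% of the 1158 Hoxb reads and Hoxd13 53.1% of the 1439 Hoxd reads. The 9 Hoxa genes gave 646 reads, spread over Hoxa3 (28.3%), Hoxa7 (16.6%), Hoxa10 (14.9%) and the rest, and these genes are named after their values were seen. After these came Hoxb4 in Hoxb (15.6% of its cluster) and Hoxd9 (14.8%) and Hoxd8 (13.1%) in Hoxd. The lowest levels over the 12 libraries were those of Hoxa9 at 0.111 per kb, Hoxb5 at 0.111 and Hoxc11 at 0.157. Hoxd3 and Hoxd4 share 62.3% and 52.3% of their exon bases with other transcripts of the same strand, mostly each other, so the split of their 21 and 59 reads is uncertain.

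Hoxb9, Hoxc13 and Hoxd13 were followed library by library. Hoxb9 had values of 29.4 in scr, 35.0 in SP, 35.3 in 3p, 26.7 in 5p, 28.6 in SATS and 41.6 in untreated cells of set 2. In set 3 it had 14.3 in scr, 12.5 in SP, 14.5 in 3p, 6.01 in 5p, 6.14 in SATS and 10.3 with luciferase. Every set 2 library lay above every set 3 library for this gene, and within set 3 the 5p and SATS libraries were the lowest.

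Hoxc13 had 30.2 in scr, 35.9 in SP, 34.5 in 3p, 30.5 in 5p, 30.7 in SATS and 27.1 in untreated cells of set 2. In set 3 it had 17.5 in scr, 27.2 in SP, 26.9 in 3p, 17.1 in 5p, 22.0 in SATS and 18.0 with luciferase. SP and 3p were the highest libraries of both sets, and the sets overlapped only at the untreated library of set 2 and the SP library of set 3.

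Hoxd13 went the other way between the sets. Its values in set 2 were 20.1 in scr, 13.9 in SP, 22.4 in 3p, 11.9 in 5p, 20.8 in SATS and 12.7 in untreated cells. In set 3 they were 34.5 in scr, 34.2 in SP, 41.8 in 3p, 31.9 in 5p, 35.7 in SATS and 32.9 with luciferase. Every set 3 library lay above every set 2 library, and 3p was the highest and 5p the lowest library of each set.

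**Figure D2:**
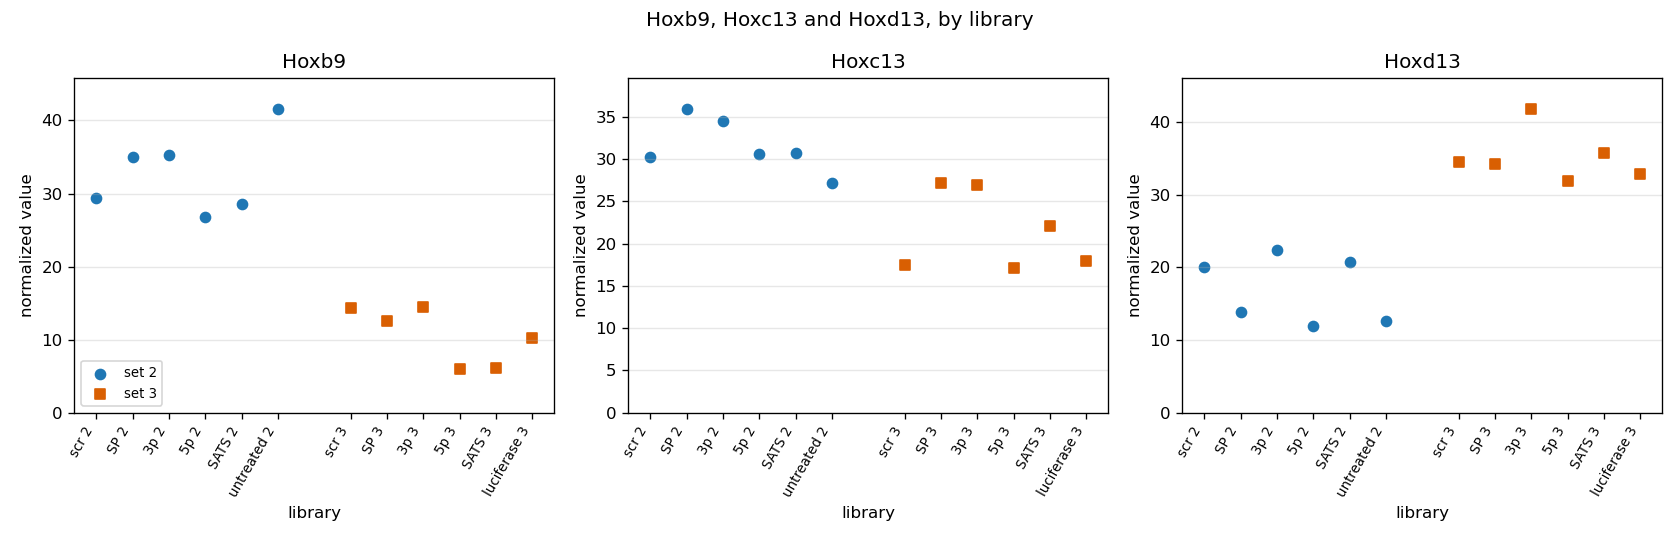
Normalized value (linear axis from 0) of Hoxb9, Hoxc13 and Hoxd13 in each library of set 2 (circles) and set 3 (squares), 1 point a library. Hoxb9 lies between 26.7 and 41.6 in set 2 and between 6.01 and 14.5 in set 3, and Hoxd13 between 11.9 and 22.4 in set 2 and between 31.9 and 41.8 in set 3.

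To ask whether Stag1 knockdown changed Hox transcripts, each siRNA was compared with scr over sets 2 and 3 with limma on log2(value + 1), 2 libraries a group, and p-values were adjusted by Benjamini-Hochberg over the 16490 genes tested. Of the 36 Hox genes, 27 passed the filter of a summed value of at least 10 over the 10 libraries (8 of Hoxa, 8 of Hoxb, 4 of Hoxc and 7 of Hoxd), and 9 could not be tested. Hoxa9, Hoxb5, Hoxc5, Hoxc6, Hoxc8, Hoxc9, Hoxc11, Hoxd3 and Hoxd12 were the 9. No Hox gene was called in SP, 3p, 5p or SATS against scr. The share of all genes called was 0.00606% for SP, 0.00606% for 3p, 0.0121% for 5p and 0% for SATS. Before adjustment, 1, 1, 2 and 1 of the 27 Hox genes had a p under 0.05. Among all genes the shares under 0.05 were 2.49%, 1.73%, 3.63% and 3.94%. With the set as a block the shares called among all genes were 0.746%, 0.285%, 2.37% and 2.64%, and no Hox gene was called in these fits or by edgeR with the same block. The Hox genes at an unadjusted p under 0.05 with the block numbered 1, 1, 3 and 1, and 1, 2, 2 and 1 by edgeR. Of all genes, 12.5%, 10.4%, 15.7% and 18.8% were under 0.05 with the block in limma. By edgeR the shares were 12.5%, 10.4%, 15.5% and 19.2%.

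The sizes that these libraries allowed were bounded most closely with the block. For Hoxc13 the log2 fold change was 0.43 (95% interval -0.01 to 0.86) with SP and 0.39 (-0.04 to 0.82) with 3p, against -0.01 (-0.44 to 0.43) with 5p and 0.17 (-0.26 to 0.60) with SATS. Each of these intervals held 0.

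For Hoxd13 the log2 fold change was -0.26 (-0.73 to 0.21) with SP, 0.21 (-0.26 to 0.68) with 3p, -0.41 (-0.88 to 0.06) with 5p and 0.05 (-0.42 to 0.51) with SATS. For Hoxb9 it was 0.03 (-0.56 to 0.63) with SP, 0.14 (-0.45 to 0.73) with 3p, -0.63 (-1.22 to -0.03) with 5p and -0.57 (-1.16 to 0.03) with SATS. The 5p value of Hoxb9 had an adjusted p of 0.287 in limma with the block. It rested mainly on set 3, where 5p stood at 42.1% of scr, while in set 2 it stood at 91.0%. Of the 7 fibroblast markers 1 was called with 5p, Col1a1 (log2 fold change -0.75, adjusted p = 0.0255 in limma with the block), the median of the list was 0.04, and its summed value was 2713 in 5p against 2910 in scr in set 2 and 366 against 573 in set 3. Its part in the Hoxb9 value was not tested.

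**Figure D3:**
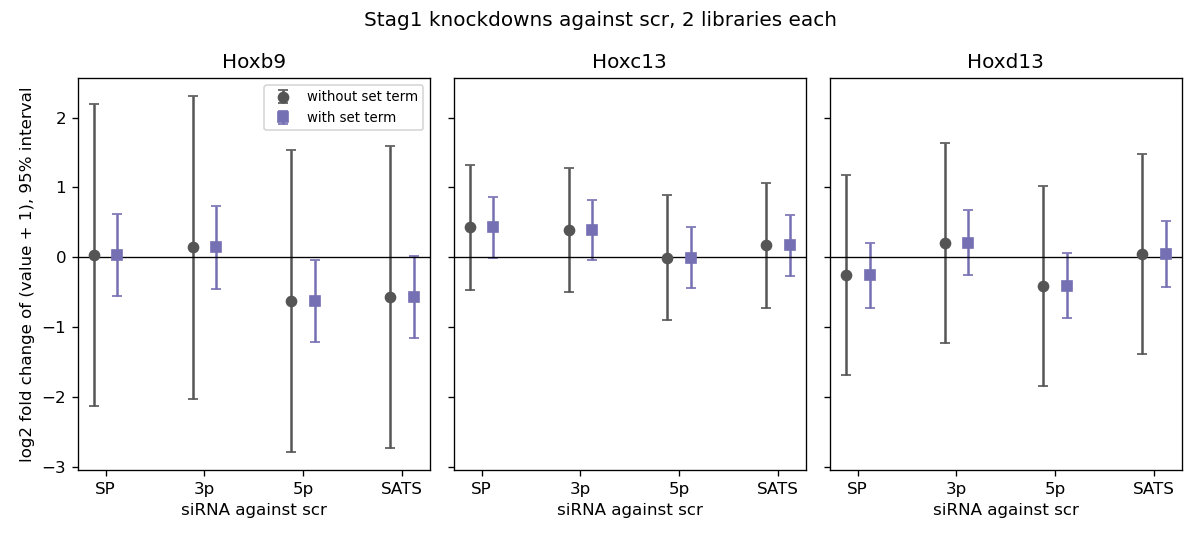
Log2 fold change of (value + 1) against scr, with its 95% interval, for the 4 siRNAs and for Hoxb9, Hoxc13 and Hoxd13, fitted without (circles) and with (squares) a term for the replicate set, 2 libraries a group. The point estimates are the same in both fits, and all intervals but that of Hoxb9 with 5p in the fit with the set term include 0.

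Among the genes with few reads, the smallest adjusted p in limma was that of Hoxb7, a gene of the thoracic region. It was 0.0897 with SATS (limma with the block). By edgeR with the block the smallest adjusted p of a Hox gene was 0.0843, also with SATS. The log2 fold change of Hoxb7 in limma was 1.45 with SATS and 1.13 with 5p. Hoxd10, a gene of the limb and lumbar region, had -1.23 with SP and -1.47 with 5p, and Hoxa11, a gene of the limb and uterus, had 1.28 with 3p. None passed the test. Each of these log2 fold changes was the highest or lowest of the tested Hox genes in its comparison. The genes were named after their values were seen. By cluster, the median log2 fold changes of the tested Hoxa, Hoxb, Hoxc and Hoxd genes were 0.15, 0.10, 0.31 and -0.14 with SP, 0.03, 0.15, 0.49 and 0.21 with 3p, 0.13, -0.13, 0.17 and -0.41 with 5p and 0.20, -0.13, 0.12 and 0.05 with SATS. The median over all genes lay between -0.0041 and 0.0119 in each comparison. These comparisons share the scr libraries, and SP and 3p may share siRNAs.

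The 5p duplex and the 3p mixture, aimed at opposite ends of the same transcript, were also compared with each other. No Hox gene was called, where 0% of all genes were called without the block and 3.26% with it. Without the block 2 of the 27 tested Hox genes had an unadjusted p under 0.05, where 4.09% of all genes did. With the block 4 of the 27 did, each lower with 5p, where 15.8% of all genes did. For Hoxd13 the log2 difference was -0.62 (-1.09 to -0.15), with an adjusted p of 0.164 in limma with the block. For Hoxb9 it was -0.77 (-1.36 to -0.18), with an adjusted p of 0.174. All 7 tested Hoxd genes had lower estimates with 5p than with 3p, with a median of -0.65 against 0.02 over all genes. Of the tested Hoxa, Hoxb and Hoxc genes, 4 of 8, 4 of 8 and 3 of 4 were lower. Their medians were 0.004, -0.01 and -0.32. No cluster was tested as a group.

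The regulators that act on the clusters were read in the same fits with the block. Of 25 Trithorax and Polycomb genes, 2 were called in 5p against scr, both lower, where 2.37% of all genes were called. Ezh1, an enzyme of a Polycomb repressive complex, fell by 0.71 on the log2 scale (adjusted p = 0.00374) and Kdm2b, which brings a Polycomb complex to unmethylated CpG islands, fell by 0.63 (adjusted p = 0.000926). None of the 25 was called with SP, 3p or SATS. Of 8 Hox cofactors reported, 2 were called by limma, both in 5p against 3p. Meis2 and Pknox1, which bind DNA together with Hox proteins, were higher with 5p than with 3p by 0.79 and 0.39 on the log2 scale (adjusted p = 0.0498 and 0.0241 in limma with the block). By edgeR with the block 1 cofactor was also called in 5p against scr. Of 15 ParaHox and retinoic acid genes tested, Aldh1a2, which makes retinoic acid, fell by 1.21 with SP (adjusted p = 0.0359). Of 14 genes that flank the clusters, Calcoco2 fell by 0.73 and Cbx5 by 0.54 with 5p, with adjusted p of 0.0196 and 0.00674. In 5p against 3p, Suz12, Rnf2, Mtf2 and Phf19, also of Polycomb complexes, were higher with 5p by 0.42, 0.51, 0.37 and 0.51, and Ezh1 and Kdm2b had log2 differences of -0.61 and -0.58, with the largest adjusted p of the 6 at 0.0385 (limma with the block), where 3.26% of all genes were called. By edgeR with the block 3 genes of this list were called higher and 2 lower. None of these calls was made without the block.

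The control libraries set a scale for these values. In set 2 the untreated cells had 142% of the scr value for Hoxb9, 238% for Hoxd8, 209% for Hoxd9 and 146% for Hoxb4, and were the highest of the 6 libraries for all 4 genes. They had 63.1% of scr for Hoxd13 and 89.9% for Hoxc13. For the genes with few reads they had 52.2% for Hoxc12, 34.8% for Hoxb3, 20.9% for Hoxb8 and 104% for Hoxb2. The untreated library also had the highest summed fibroblast marker value of the set, 5757 against 2641 to 3715 in the other 5, and the part of this in the Hox values was not tested. In set 3 luciferase stood at 71.9% of scr for Hoxb9, 103% for Hoxc13 and 95.4% for Hoxd13. With 1 library each, untreated and luciferase were not tested, and both were left out of the fits.

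The Hox genes were next compared between the replicate sets. Set 3 was compared with set 2 over the 5 siRNAs present in both, with a term for the siRNA, in limma. The 5 libraries of a set share whatever the sets share and are not independent samples of it, and the set cannot be told apart from what was done with it. Of the 27 tested Hox genes 10 were called, 3 higher and 7 lower in set 3, which is 37.0% of them, where 51.6% of all 16490 genes were called. By edgeR 10 were called, where 51.5% of all genes were. With all 5 siRNAs the share of Hox genes called was thus below that of all genes. Without the SP libraries 7 were called, and the share of all genes called in that run is not given here. None of the 36 Hox genes reported had a mean value above that of the median gene. The part of low levels in this share was not tested.

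Hoxb9 fell from a mean value of 32.8 ± 5.57 (SD, n = 6) in set 2 to 10.6 ± 3.84 (n = 6) in set 3, with a log2 fold change of -1.53 ± 0.17 (SE) and an adjusted p of 6.6e-06 in limma. It was lower in set 3 in 5 of 5 siRNA pairs. The means here cover all 6 libraries of a set, and the tests the 5 siRNAs common to both. Hoxd13 rose from 17.0 ± 4.64 to 35.2 ± 3.52, with a log2 fold change of 0.99 ± 0.14 and an adjusted p of 4.1e-05 in limma. It was higher in 5 of 5 pairs.

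Hoxc13 fell from 31.5 ± 3.19 to 21.4 ± 4.68 (log2 fold change -0.55 ± 0.13, adjusted p = 0.00248 in limma) and was lower in 5 of 5 pairs.

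**Figure D4:**
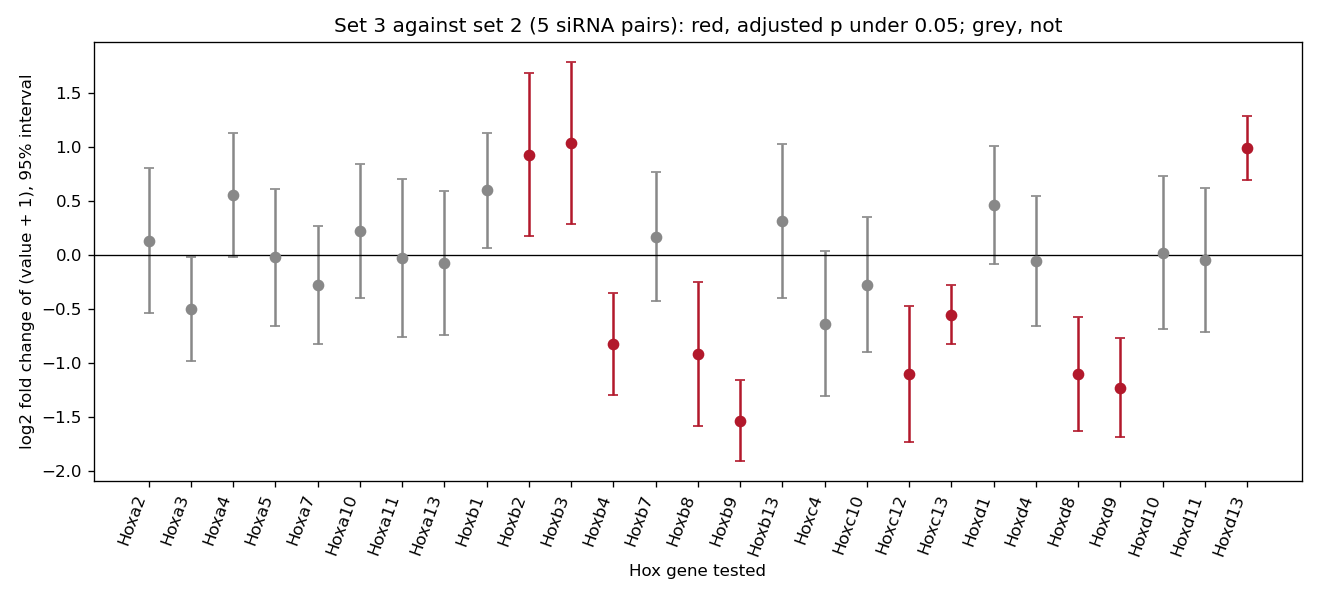
Log2 fold change of (value + 1) between set 3 and set 2, with its 95% interval, for the 27 Hox genes tested, over 5 siRNA pairs, in red where the adjusted p over all genes was under 0.05. The 3 red points above 0 are Hoxb2, Hoxb3 and Hoxd13, and the 7 below are Hoxb4, Hoxb8, Hoxb9, Hoxc12, Hoxc13, Hoxd8 and Hoxd9.

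Hoxd9, Hoxd8 and Hoxb4 were also lower in set 3. Hoxd9 had values of 9.23 in scr, 12.9 in SP, 9.56 in 3p, 7.16 in 5p, 10.6 in SATS and 19.3 in untreated cells of set 2, and 3.17, 4.04, 6.17, 2.78 and 2.53 in the same siRNAs and 2.57 with luciferase in set 3. Hoxd8 had 7.55, 7.18, 7.90, 6.68, 11.6 and 17.9 in the same order in set 2, and 3.57, 4.41, 3.08, 3.70, 1.81 and 2.99 in set 3. For both genes the sets did not overlap.

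The log2 fold change was -1.23 ± 0.21 for Hoxd9 (adjusted p = 0.000282 in limma) and -1.10 ± 0.25 for Hoxd8 (adjusted p = 0.0020). Hoxb4, known for its part in blood stem cells, had 8.39, 9.58, 6.65, 5.73, 8.82 and 12.3 in set 2 and 5.16, 4.41, 2.64, 5.09, 2.89 and 4.28 in set 3. It fell by 0.83 ± 0.22 on the log2 scale (adjusted p = 0.00633 in limma), and its sets did not overlap. In all, the sets did not overlap for 5 Hox genes, 18.5% of those tested, where this held for 26.1% of all genes tested.

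The other 4 called genes (Hoxb8, Hoxc12, Hoxb2 and Hoxb3) rested on few reads. Hoxb8, a gene of the trunk and of blood cells, had a mean of 1.75 ± 0.89 in set 2 and 0.649 ± 0.692 in set 3 (log2 fold change -0.92, adjusted p = 0.0231 in limma). Hoxc12, a neighbour of Hoxc13, had 2.71 ± 0.96 and 1.07 ± 0.71 (-1.10, adjusted p = 0.0060). Both were lower in 5 of 5 pairs. The call of Hoxb8 was lost without the scr libraries (adjusted p = 0.0894 in limma) and without the SATS libraries (0.0595), and with a pseudocount of 10 (0.0609).

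Hoxb2 and Hoxb3, genes of the hindbrain, had means of 0.914 ± 0.504 and 0.736 ± 0.536 in set 2 and of 2.38 ± 1.11 and 2.73 ± 2.05 in set 3, with log2 fold changes of 0.93 and 1.04 (adjusted p = 0.0398 and 0.0231 in limma). They were higher in 4 and 5 of 5 pairs. The call of Hoxb2 was lost without the SP, 5p or SATS libraries (adjusted p = 0.0672, 0.192 and 0.117 in limma) and with pseudocounts of 0.1 and 10 (0.0560 and 0.0578), and that of Hoxb3 without the SP or 3p libraries (0.101 and 0.115). Hoxb2 and Hoxb3 had 48 and 51 reads over the 12 libraries and share 953 and 2250 exon bases with the antisense gene Hoxb3os, so their reads can be told apart only as far as the strand was kept in counting. Of their neighbours, Hoxb1 had a log2 value of 0.60 that did not pass (adjusted p = 0.0567).

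Genes of 1 cluster went in both directions between the sets. In Hoxd, Hoxd13 rose while Hoxd8 and Hoxd9 fell, and the summed value of the cluster was 47.6 ± 12.2 (n = 6) in set 2 and 51.3 ± 7.03 (n = 6) in set 3. Without Hoxd13 the sum was 30.6 ± 11.8 and 16.1 ± 3.96. In Hoxb, Hoxb2 and Hoxb3 rose while Hoxb4, Hoxb8 and Hoxb9 fell, the sum was 51.5 ± 8.02 and 29.3 ± 4.07, and without Hoxb9 it was 18.7 ± 2.98 and 18.7 ± 3.64. The Hoxc sum was 42.4 ± 3.52 and 28.6 ± 6.34 and the Hoxa sum, over the 9 genes reported, 23.5 ± 3.87 and 21.2 ± 4.38.

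Several marker lists differed between the sets, where 51.6% of all genes were called. All 7 fibroblast markers fell in set 3, with a median log2 fold change of -2.10, and Col1a1, the collagen chain at the head of the list, went from 1849 to 4627 in set 2 to 155 to 367 in set 3. All 3 tested trophoblast markers fell (median -2.21), 4 of 6 embryonic stem cell markers fell (median -0.46), and 3 of 4 tested neural markers rose (median 0.59). Other lists went both ways, with 2 of 6 primitive endoderm markers higher and 2 lower, and 2 of 5 mesoderm and streak markers higher and 1 lower. Fibroblasts of the trunk and limbs are known to express Hox genes. Summed trophoblast values were 1031 to 1367 in set 2 and 412 to 602 in set 3. The part of other cell types in the Hox values was not tested, and in bulk RNA fewer cells of a type and less RNA in each cell cannot be told apart.

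**Figure D5:**
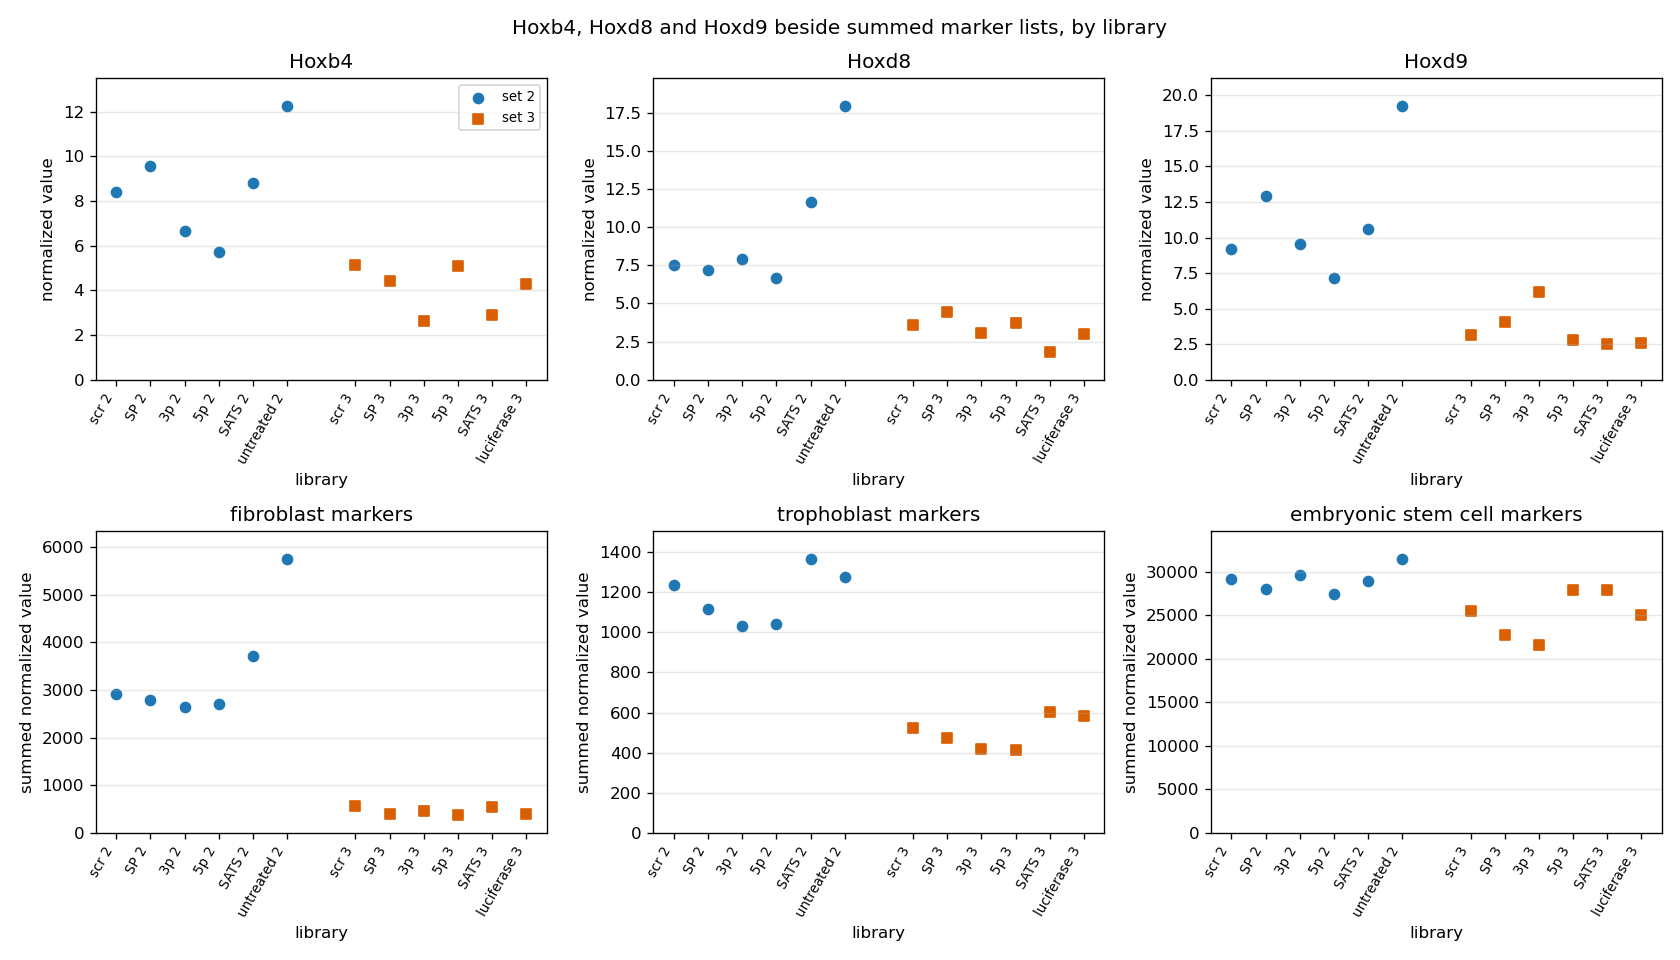
Normalized values of Hoxb4, Hoxd8 and Hoxd9 (upper panels) and summed normalized values of the fibroblast, trophoblast and embryonic stem cell marker lists (lower panels) in each library of set 2 (circles) and set 3 (squares), linear axes from 0. The untreated library of set 2 is the highest for Hoxb4 at 12.3, Hoxd8 at 17.9, Hoxd9 at 19.3 and the fibroblast markers at 5757. The 3 Hox genes are some of the 10 called between the sets. Of those not plotted, Hoxb2, Hoxb3 and Hoxd13 were higher in set 3, and Hoxb8, Hoxb9, Hoxc12 and Hoxc13 lower. Within set 2 the untreated library was the highest for Hoxb9 and the lowest for Hoxc13.

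Lists of genes that act on Hox transcription were read in the same comparison, where 51.6% of all genes were called. Of 15 tested ParaHox and retinoic acid genes 7 fell and none rose, among them Aldh1a2 (log2 fold change -1.73), Stra8 (-1.65), a target of retinoic acid, Cyp26b1 (-0.91), which breaks retinoic acid down, and the receptors Rara (-0.30) and Rarg (-0.27). Of 25 Trithorax and Polycomb genes 7 rose and 6 fell (median 0.02), and of 8 cofactors 3 rose and 3 fell (median -0.05). Of the 14 flanking genes 4 rose and 4 fell. Evx1, next to the Hoxa13 end of the Hoxa cluster, rose by 1.05, and Calcoco2, near the Hoxb13 end of the Hoxb cluster, fell by 1.29. Of 6 tested noncoding transcripts of the clusters, Haglr, in the Hoxd cluster, rose by 0.72 and Mir196a-1, beside Hoxb9, fell by 0.76.

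The spread of the Hox values within a set was set beside what counting reads alone gives, which for genes with few reads makes up most of it. Over the 27 tested genes the SD across the 5 siRNA libraries was a median of 0.987 times the SD from counting reads in set 2 (range 0.595 to 1.67) and 1.18 times in set 3 (0.701 to 2.06), and was over 1.5 for 2 and 6 of the genes. The genes with most reads were above counting in 1 of the sets, Hoxb9 at 2.06 and Hoxc13 at 1.63 in set 3 and Hoxd13 at 1.67 in set 2. These ratios cover all differences between the siRNAs of a set. At this depth a change in most Hox genes smaller than the counting error was not detectable.

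Set 1 was too shallow for the Hox genes. Of the 36 genes, 13 had no read in any of its 4 libraries, and 4 had more than 3 reads in at least 1. The largest count was that of Hoxc13, with 11 reads in scr and 4, 3 and 3 in SP 1a, 1b and 1c, which is a normalized value of 73.7 against 18.8, 9.65 and 24.2. With 1 scr library this was not tested, and in sets 2 and 3 the SP library was the higher one for this gene.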

How the data were processed

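The authors ran a Nextflow RNA-seq pipeline with HISAT2 on mm10, counted reads per gene with featureCounts and divided them by DESeq2 (1.14.1) size factors, and genes with very low totals had been removed. The deposited values are thus a normalized signal. The annotation used for counting is not given in the sources used here. Dividing each library by its smallest value above 0 gave whole reads for 100% of values within 0.01. The strand setting is stated for paired-end libraries only. The 2i libraries and a table of set 1 alone were not used here.

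Some genes that meet the rules are not reported here. The members and gene lists were chosen with earlier results of these data known. Genes whose values over the 10 libraries summed to 10 or more were fitted with limma (3.58.1, R 4.3.3) on log2(value + 1) with a trend, without a block. Libraries with the same number come from 1 replicate set by the labels, and their deviations correlated (mean r = 0.856, range 0.809 to 0.934, 10 pairs), so fits with the set as a block are given beside it. edgeR (4.0.16) on recovered reads was an alternative. Calls had a Benjamini-Hochberg adjusted p under 0.05 across all genes. Named were Hox genes with a median of at least 20 reads and those called, and of other lists those called. Some others, Hoxb7, Hoxd10 and Hoxa11 among them, were named after their values were seen. Exon lengths came from GENCODE M21 and promoters from RefSeq. Scripts were tested on simulated data.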

Additional observations from a re-analysis of the deposited data

Results flagged for a closer look

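In the SP group, whose 5 libraries come from all 3 sets, a single library stood far from the others for 5 of the 10 Hox genes examined. The rule would pick about 1 in 20 groups of like libraries, but these genes were taken because they differed between the sets and the sets differ in depth, so that share is no chance value here. Hoxb2 was at 24.2 and Hoxb3 at 16.1 in SP 1c, on 3 and 2 reads, in a library where 1 read is worth 8.05. Hoxb9 was at 35.0 and Hoxb8 at 2.87 in the SP library of set 2, and Hoxd13 at 34.2 in the SP library of set 3, which are the sets where these genes were high with the other siRNAs too.

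Hoxb2 lay on opposite sides of scr in the sets. All 4 knockdowns lay below scr in set 2, by a mean normalized value of -0.53, although 3p and scr had 3 reads each there and differed only by their size factors, and all 4 lay above scr in set 3, by a mean of 1.66. The difference was not tested, and Hoxb2 had 0 to 9 reads in a library.

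Set 1 entered no test. In its SP libraries 2 Hox genes had more than 3 reads and a value above that of scr. Hoxa10 was at 18.8 in SP 1a (4 reads) against 0 in scr, and Hoxd13 at 16.1 in SP 1b (5 reads) against 6.70 in scr.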

How the results depend on the processing

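In the comparisons of siRNAs no Hox gene was called under any alternative run (pseudocounts of 0.1 and 10, no filter, a summed value of at least 100, edgeR, the replicate block with limma and with edgeR, other controls, set 1 added, each library left out), while the block raised the calls among all genes from 1, 1, 2, 0 and 0 to 123, 47, 391, 436 and 537 for SP, 3p, 5p, SATS and 5p against 3p. The block left every Hox call as it was. Between the sets 10 Hox genes were called, and 9 to 12 under the other pseudocounts, no filter, edgeR and no siRNA term. With a summed value of at least 100 only Hoxb9, Hoxc13 and Hoxd13 entered, and 3 were called. With 1 siRNA left out the count ran from 7 to 11. Apart from the main and edgeR fits, the shares of all genes called in these runs are not given here. The counts are thus not compared with those of other genes. Hoxb4, Hoxb9, Hoxc12, Hoxc13, Hoxd8, Hoxd9 and Hoxd13 were called under each alternative that tested them.

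Leaving out 1 library of a siRNA comparison leaves the groups in unequal sets, so that the set difference enters the estimate, and the sign then depended on the library. The log2 fold changes of Hoxb9 ran from -0.67 to 0.74 (SP), -0.47 to 0.75 (3p), -1.62 to 0.36 (5p), -1.59 to 0.46 (SATS) and -1.76 to 0.22 (5p against 3p). Those of Hoxc13 ran from -0.41 to 0.39 (5p), -0.21 to 0.55 (SATS) and -0.80 to 0.0043 (5p against 3p). Those of Hoxd13 ran from -0.88 to 0.36 (SP), -0.22 to 0.65 (3p), -1.08 to 0.27 (5p), -0.33 to 0.42 (SATS) and -1.29 to 0.0549 (5p against 3p). With set 1 added the SP values were -0.61 for Hoxb9, -0.39 for Hoxc13 and 0.14 for Hoxd13, each of the other sign, and with all controls Hoxc13 was at 0.0219 with 5p. The cause was not tested. Depth limits the Hox genes outside these 3, since 1 read is worth 0.353 to 0.479 in sets 2 and 3 and 3.22 to 8.05 in set 1.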

Other observations

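Noncoding transcripts of the clusters were measured beside the Hox genes. Halr1, a noncoding gene beside the Hoxa cluster, had normalized values of 53.9 to 74.8 in set 2 and 63.6 to 80.5 in set 3 and did not pass the test between the sets (log2 fold change 0.20, adjusted p = 0.112 in limma). Haglr, on the other strand within the Hoxd cluster, had 1.91 to 3.50 in set 2 and 2.14 to 5.73 in set 3 and was among the transcripts that rose.

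Evx1, a homeobox gene beside Hoxa13, had 17.6 to 27.1 in set 2 and 29.9 to 52.9 in set 3, without overlap, and rose by 1.05 on the log2 scale (adjusted p = 1.6e-05 in limma), while Hoxa13 itself had a log2 value of -0.07 (adjusted p = 0.864). Cdx1, a homeobox gene outside the clusters that acts on Hox genes, fell by 1.37 (adjusted p = 2.9e-06 in limma), from 35.8 to 54.1 in set 2 to 9.92 to 26.0 in set 3, whereas Cdx2 had -0.21 (adjusted p = 0.143).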
